A study of Mus musculus with 6 samples.

Results

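The retinoblastoma pocket proteins and the E2F factors were examined in whole testes of Alkbh1 knockout mice and wild-type mice. All probe sets whose platform annotation named exactly Rb1, Rbl1, Rbl2, E2f1, E2f2, E2f3, E2f4, E2f5, Tfdp1 or Tfdp2 were taken, which gave 24 of the 45101 probe sets on the array, for 10 of the 18193 genes that the annotation names. Each probe set reads 1 stretch of a transcript with a number of short probes, and some genes are read by more than 1. The 10 genes were chosen on the known KO minus WT difference of Rbl2, to which its relatives and partners were added by name. The differences between genotypes below are therefore a description, with no test of their own.

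RNA came from 3 Alkbh1-/- mice (KO) and 3 wild-type mice (WT), all 12 weeks old, with 1 Affymetrix array per mouse. Both genotypes carried the same background, which the labels spell C57/BL6 in 1 field and C53/BL6 in another. Alkbh1 encodes a dioxygenase of the AlkB family, and the labels do not say what was deleted from it. The values are normalized log2 expression values as the authors deposited them, so that a difference of 1 stands for a doubling.

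Pocket proteins bind E2F transcription factors and hold genes of the cell cycle silent until cyclin-dependent kinases phosphorylate them. Rb1 encodes the retinoblastoma protein, which mainly binds the activating factors E2F1 to E2F3. Rbl1 (p107) and Rbl2 (p130) encode its relatives, which mainly bind the repressive factors E2F4 and E2F5, and with the MuvB proteins they form the DREAM complex of resting cells. Tfdp1 and Tfdp2 encode the DP proteins with which E2F factors pair on DNA. In the testis, spermatogonia divide and enter meiosis, while adult Sertoli cells have left the cell cycle.

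The labels were checked at Alkbh1. Of its 2 probe sets, 1434660_at read 5.76, 5.30 and 5.20 in KO testes, against 8.43, 8.65 and 8.72 in WT testes, a fall that passed the test across all probe sets (limma adjusted p = 0.000582). The other, 1438681_at, read 6.03, 5.78 and 6.10 in KO testes, against 6.97, 6.82 and 7.16 in WT testes, a difference of −1.02 ± 0.12 that did not pass (limma adjusted p = 0.0697). Whether the probes of either lie in the deleted stretch is not known. Correlations between arrays ran from 0.989 to 0.996. On the first principal component WT replicate 1 lay lowest (−24.36) and WT replicate 2 highest (21.03). The same replicates held the extremes of the control RNAs of bacterial genes, whose mean was 6.04 and 8.10 on them and 6.69 to 7.06 on the remaining 4 arrays. Germ cell markers were present as the tissue label gives, with 7 of 7 spermatid genes tested and an array mean over them of at least 13.99 in KO testes and at least 13.93 in WT testes. In whole testis, fewer cells of a type and less RNA per cell cannot be told apart.

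The upstream sequence of Rbl2, the gene that stood apart, is shown beside those of its close relative Rbl1 and of E2f3. Rbl1 and E2f3 hold letters that E2F factors are known to bind. RefSeq promoters (GRCm38.p6) were found for 7 of the 10 genes, in 11 windows, since a gene can have several starts. Each sequence is given 5′ to 3′ and ends at the base before the annotated start. Capitals mark a match to TTTCCCGC, TTTCGCGC, TTTGCCGC or TTTGGCGC on either strand. The windows are chr8:91069807-91070056 (+) for Rbl2, chr2:157204535-157204784 (−) for Rbl1 and chr13:29986064-29986313 (−) for the upstream start of E2f3.
Rbl2: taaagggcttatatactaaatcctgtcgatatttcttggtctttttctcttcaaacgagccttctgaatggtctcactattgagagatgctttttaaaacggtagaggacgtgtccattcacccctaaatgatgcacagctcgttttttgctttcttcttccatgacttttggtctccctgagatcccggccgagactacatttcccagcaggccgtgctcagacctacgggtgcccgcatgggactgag
Rbl1: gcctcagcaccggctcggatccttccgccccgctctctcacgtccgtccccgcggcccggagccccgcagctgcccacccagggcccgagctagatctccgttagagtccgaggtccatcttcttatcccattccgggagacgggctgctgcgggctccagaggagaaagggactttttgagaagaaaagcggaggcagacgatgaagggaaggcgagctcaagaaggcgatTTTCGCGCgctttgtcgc
E2f3: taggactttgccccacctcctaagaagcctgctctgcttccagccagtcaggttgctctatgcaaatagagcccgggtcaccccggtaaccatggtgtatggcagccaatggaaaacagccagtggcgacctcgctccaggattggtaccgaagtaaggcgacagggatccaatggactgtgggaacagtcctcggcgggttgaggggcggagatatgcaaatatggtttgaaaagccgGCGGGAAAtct

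Of these windows, that of Rbl2 held 0 matches, as did all windows of E2f1, E2f2 and Tfdp2 and the downstream window of E2f3. Rbl1 had 1 match, TTTCGCGC, with 10 bases between it and the start. E2f3 had 1 in its upstream window, read as GCGGGAAA, with 3 bases between it and the start. Tfdp1 had 1 match, GCGCGAAA, which lies in the windows of both its starts. In all, 4 of the 11 windows held a match, against 1.86% of 32851 promoter windows of the same 250 bases. A match shows only that these letters occur there, and no match shows only that they do not occur in this window.

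Rbl2 read higher in every KO testis than in any WT testis, at both of its probe sets. Probe set 1418146_a_at read 8.99, 9.17 and 9.06 in KO testes, against 8.54, 8.52 and 8.68 in WT testes. The lowest KO value thus lay above the highest WT value, and the means differed by 0.49 ± 0.08 log2 (SE, n = 3 each), or 1.4-fold. Probe set 1425981_a_at read 9.05, 9.06 and 9.03 in KO testes, against 8.60, 8.53 and 8.65 in WT testes, a difference of 0.45 ± 0.06 or 1.37-fold. The KO arrays were within 0.03 of each other at this probe set and the WT arrays within 0.11. Both names end in _a_at, which marks probes shared by transcript variants of 1 gene, and both were read from the same 6 RNA samples. With WT replicates 1 and 2 left out, an alternative chosen after seeing the data, the differences were 0.39 and 0.398.

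Of 8 Sertoli cell markers 0 passed the test, also at an unadjusted p under 0.05 (limma). Of them 6 had lower means in KO testes, while Sox9 and Gata4 differed by 0.02 and 0.00, and the median difference was −0.071 log2. The mean over the list ran from 9.12 to 9.16 in KO testes and from 9.19 to 9.22 in WT testes, without overlap. Of all tested probe sets, taken singly, 11% had no overlap in either direction, and such a share was not computed for list means. Spermatid markers leaned to the other side, with 7 of 7 higher in KO testes and a median difference of 0.02 log2. The differences at the Rbl2 probe sets were 0.49 and 0.45. The part of Sertoli cells in the Rbl2 difference was not tested. Spermatogonia markers overlapped between genotypes (8.02 to 8.08 in KO testes, 8.04 to 8.20 in WT testes), as did those of spermatocytes (11.02 to 11.16 in KO testes, 10.85 to 11.20 in WT testes). Over 10 marker lists, 0 of 47 genes tested passed (limma, adjusted p from 0.939 to 1, with 1 at an unadjusted p under 0.05). Over all 13897 genes, with 1 probe set each, 0.0432% passed and 5.51% had an unadjusted p under 0.05.

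The other pocket proteins differed little between genotypes. For Rb1, probe set 1417850_at read 8.62, 8.74 and 8.95 in KO testes, against 8.59, 8.94 and 8.85 in WT testes. The genotypes overlapped, with a difference of −0.02 ± 0.11 that was under the spread within either genotype. The other Rb1 probe set, 1444400_at, read between 3.37 and 3.54 in KO testes and between 3.15 and 3.51 in WT testes. It lay in the lowest 3.8% of probe set levels, where the values hold mostly background. For Rbl1, probe set 1424156_at read 9.37, 9.34 and 9.34 in KO testes, against 9.25, 9.41 and 9.40 in WT testes, a difference of 0.00 ± 0.06. Its 3 other probe sets, 1425166_at, 1432604_at and 1454293_at, lay under the level filter described below, with differences of −0.02, −0.07 and −0.06. The KO and WT values overlapped at all 4.

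**Figure D1:**
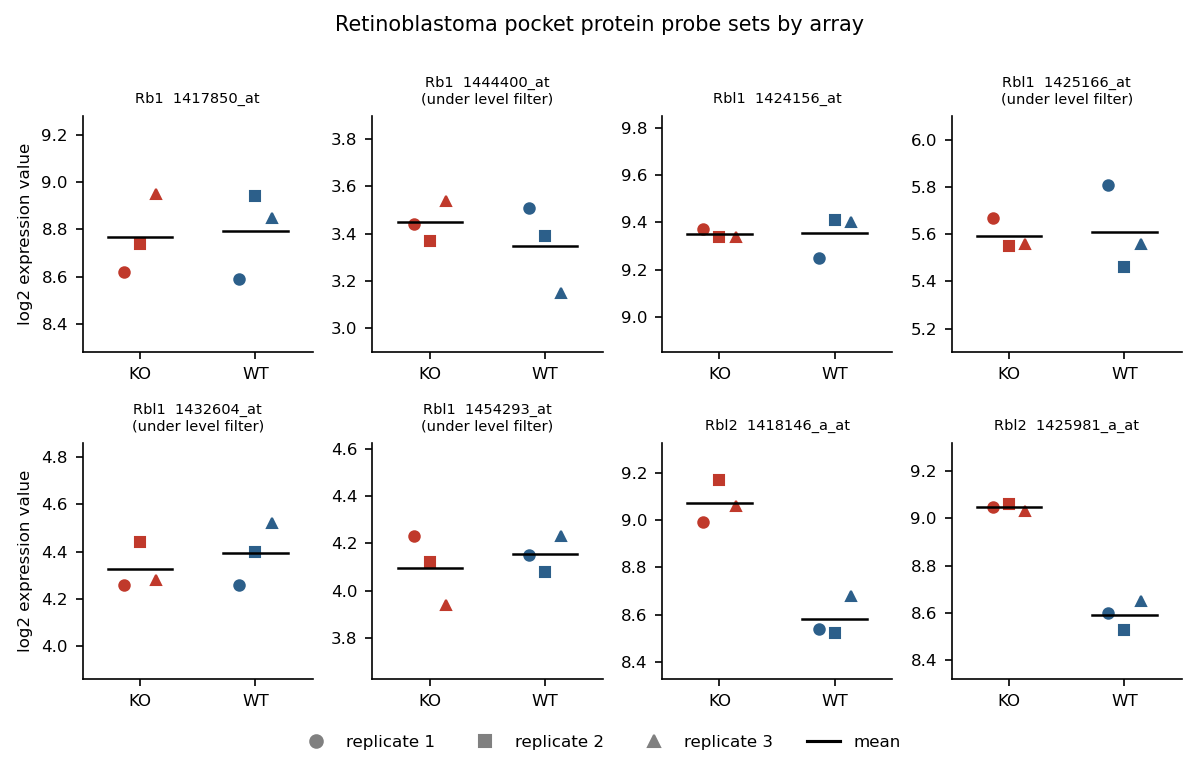
Log2 expression values of the 8 probe sets of Rb1, Rbl1 and Rbl2 in KO and WT testes, 1 point per array, with the marker shape giving the replicate number and the line the mean. Each panel has its own axis, since levels of different probe sets cannot be compared. Both Rbl2 panels show the 3 KO arrays above the 3 WT arrays, with differences of 0.49 and 0.45, while the genotypes overlap in the other 6 panels.

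Among the activating factors, E2f1 had 3 probe sets. Probe set 1417878_at read 6.47, 6.38 and 6.58 in KO testes, against 6.62, 6.53 and 6.47 in WT testes, and 1431875_a_at read 6.90, 6.94 and 6.87 in KO testes, against 7.04, 6.90 and 6.87 in WT testes. Both overlapped, with differences of −0.07 ± 0.08 and −0.03 ± 0.07. The remaining one, 1447840_x_at, was under the level filter, and its suffix marks probes that can also bind other transcripts. It read 5.79, 5.78 and 5.76 in KO testes, against 5.61, 5.73 and 5.69 in WT testes, so that the genotypes did not overlap although the difference was only 0.10 ± 0.08.

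E2f3, which encodes another activator, had its 2 probe sets near the middle of the range of levels. At 1434564_at it read 6.57, 6.58 and 6.41 in KO testes, against 6.64, 6.62 and 6.64 in WT testes, without overlap and with a difference of −0.12 ± 0.08. At 1427462_at the values overlapped, from 5.93 to 6.08 in KO testes and from 5.89 to 6.19 in WT testes (−0.04 ± 0.10).

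E2f2 varied more between mice of 1 genotype than between the genotypes. Probe set 1455790_at read 6.37, 6.10 and 5.17 in KO testes, against 5.13, 6.30 and 5.14 in WT testes. KO replicates 1 and 2 and WT replicate 2 were thus high and the other 3 arrays low, with a gap of almost 1 log2 between them. Probe set 1436434_at read 6.91, 6.97 and 6.58 in KO testes, against 6.50, 6.81 and 6.60 in WT testes. The same 3 arrays were the highest there, by less. The differences between genotypes, 0.36 ± 0.37 and 0.18 ± 0.12, were under the spread within a genotype, and 1455790_at was under the level filter.

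The genes whose pattern over the 6 arrays was most like that of E2f2 were looked up after its values had been seen. Likeness was the root mean square difference between values centred on their mean over the arrays. For 1455790_at the 5 nearest genes were Col16a1, a collagen gene (0.189), Ahdc1 (0.293), Tia1, an RNA-binding protein gene (0.300), Phc2, a Polycomb gene (0.315), and Ptp4a2, a phosphatase gene (0.315). Of these, 4 lie on chromosome 4, as E2f2 does, and Tia1 lies on chromosome 6. Chromosome 4 holds 6.2% of the 23423 tested probe sets that name 1 gene. Between E2f2 and Ahdc1, Col16a1, Ptp4a2 and Phc2 lie 65, 104, 107 and 138 other genes measured on the array. Col16a1 read 11.36, 11.59 and 10.53 in KO testes, against 10.16, 11.38 and 10.19 in WT testes, high on the same 3 arrays as E2f2. For the other E2f2 probe set, 1436434_at, the 5 nearest genes (Epb41l2, Sgtb, Atp8a2, Lonp2 and Tcirg1) included 0 on chromosome 4. The 21 probe sets of the 10 nearest neighbours of E2f2 had differences between genotypes from −0.22 to 0.10. That measure does not show whether they share the array pattern of E2f2. In these 6 mice the array pattern of E2f2 is not that of the genotype label, and its source was not tested.

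**Figure D2:**
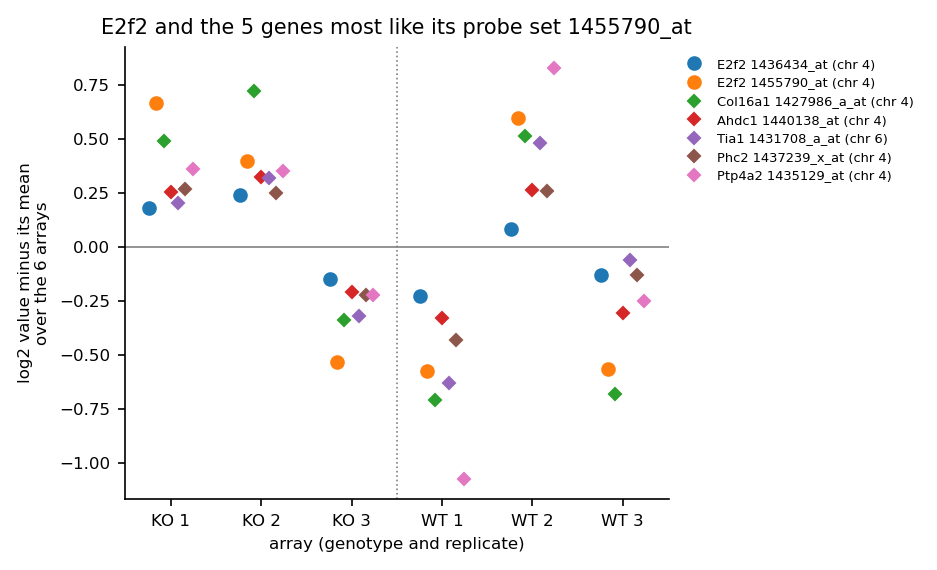
Log2 values of both E2f2 probe sets (circles) and of the 5 genes most like 1455790_at (diamonds), each centred on its mean over the 6 arrays, by array with KO left of the dotted line and WT right of it. All 7 probe sets lie above 0 in KO replicates 1 and 2 and WT replicate 2 and below 0 in the other 3 arrays.

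Among the repressive factors, E2f4 read 8.37, 8.42 and 8.27 in KO testes, against 8.45, 8.24 and 8.30 in WT testes at its only probe set, 1451480_at. The values overlapped, with a difference of 0.02 ± 0.08. E2f5 was nearly constant at 2 of its 3 probe sets. Probe set 1417444_at read 9.41, 9.43 and 9.38 in KO testes, against 9.37, 9.47 and 9.41 in WT testes. Probe set 1460207_s_at, whose suffix marks probes that can fit more than 1 gene, read 8.37, 8.42 and 8.34 in KO testes, against 8.37, 8.38 and 8.38 in WT testes. Their differences were −0.01 ± 0.06 and 0.00 ± 0.06.

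The remaining E2f5 probe set, 1447625_at, went its own way. It read 9.77, 9.97 and 9.64 in KO testes, against 11.35, 9.19 and 9.37 in WT testes, so that WT replicate 1 lay far above the other 5 arrays. The difference between genotypes was −0.17 ± 0.50 with all arrays and 0.516 without WT replicate 1, a change of sign that rested on that array. The other E2f5 probe sets did not share the high value of WT replicate 1, at 9.37 and 8.37.

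The DP partners were next. Tfdp1 read 10.13, 10.20 and 10.14 in KO testes, against 10.21, 10.19 and 10.14 in WT testes, overlapping within 0.08 log2 over all 6 arrays. Tfdp2 had 4 probe sets, which did not move as 1. At 1437174_at it read 8.08, 7.91 and 8.16 in KO testes, against 8.28, 8.30 and 8.34 in WT testes, all KO values being below all WT values by a mean difference of −0.25 ± 0.08. Probe set 1435344_at read 8.92, 8.87 and 8.93 in KO testes, against 8.99, 8.88 and 9.03 in WT testes, an overlap with a difference of −0.06 ± 0.07. Probe sets 1443962_at and 1445873_at also overlapped (−0.02 ± 0.10 and −0.10 ± 0.09). At 1443962_at KO replicate 1 read 8.21, above the other 5 arrays, of which KO replicate 2 was the lowest at 7.84.

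**Figure D3:**
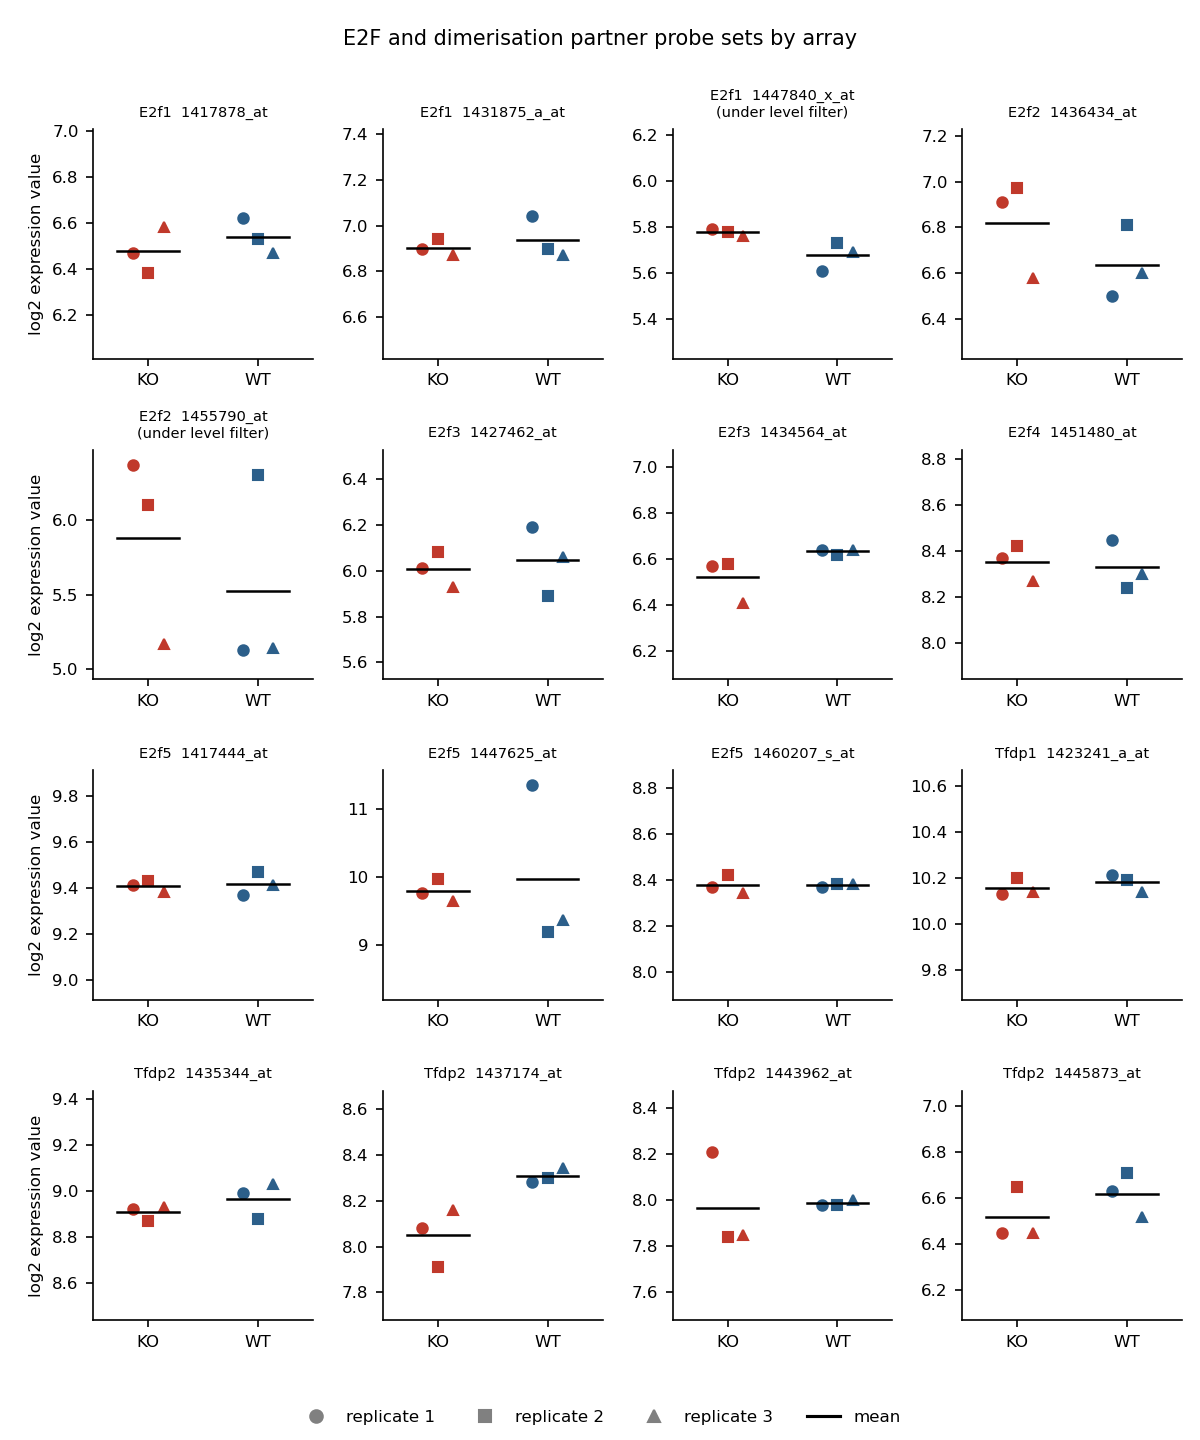
Log2 expression values of the 16 probe sets of E2f1 to E2f5, Tfdp1 and Tfdp2 in KO and WT testes, 1 point per array with the shape giving the replicate number and the line the mean, each panel on its own axis. The KO arrays lie below the WT arrays at Tfdp2 1437174_at (−0.25), E2f2 1455790_at splits each genotype, and WT replicate 1 stands alone at 11.35 for E2f5 1447625_at.

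Over the whole set, the test was limma across the 27022 probe sets in the upper 60% by mean level, with Benjamini-Hochberg adjustment. Of the 24 probe sets, 18 lay above this level filter and 6 under it, and all 10 genes kept at least 1. Of the 18 tested, 0 passed an adjusted p under 0.05, against 0.0407% of all tested probe sets, with 0.0333% higher and 0.0074% lower in KO testes. With limma's array weights, where the count over the array was 46 and not 11, 1 passed, Rbl2 1425981_a_at. In the main fit the Rbl2 probe sets did not pass (limma adjusted p = 0.183 at 1418146_a_at and 0.111 at 1425981_a_at). At an unadjusted p under 0.05 there were 3, both of Rbl2 and 1437174_at of Tfdp2, against 5.11% of all. Without overlap between genotypes there were 2 higher in KO testes, against 7.12% of all, and 2 lower, against 3.84% of all. Nothing is read from these counts, since the genes were chosen with this contrast in view. The median difference was −0.023 over the 18 probe sets and −0.020 over all 24, against 0.013 over all tested probe sets, and 20 of the 24 (83.3%) differed by under 0.2 in size, against 93.1% of all probe sets. The standard error had a median of 0.08 for these probe sets, the same as over all tested ones, so that the number of arrays left differences of the size seen at E2f1, E2f3 and E2f4 unresolved.

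**Figure D4:**
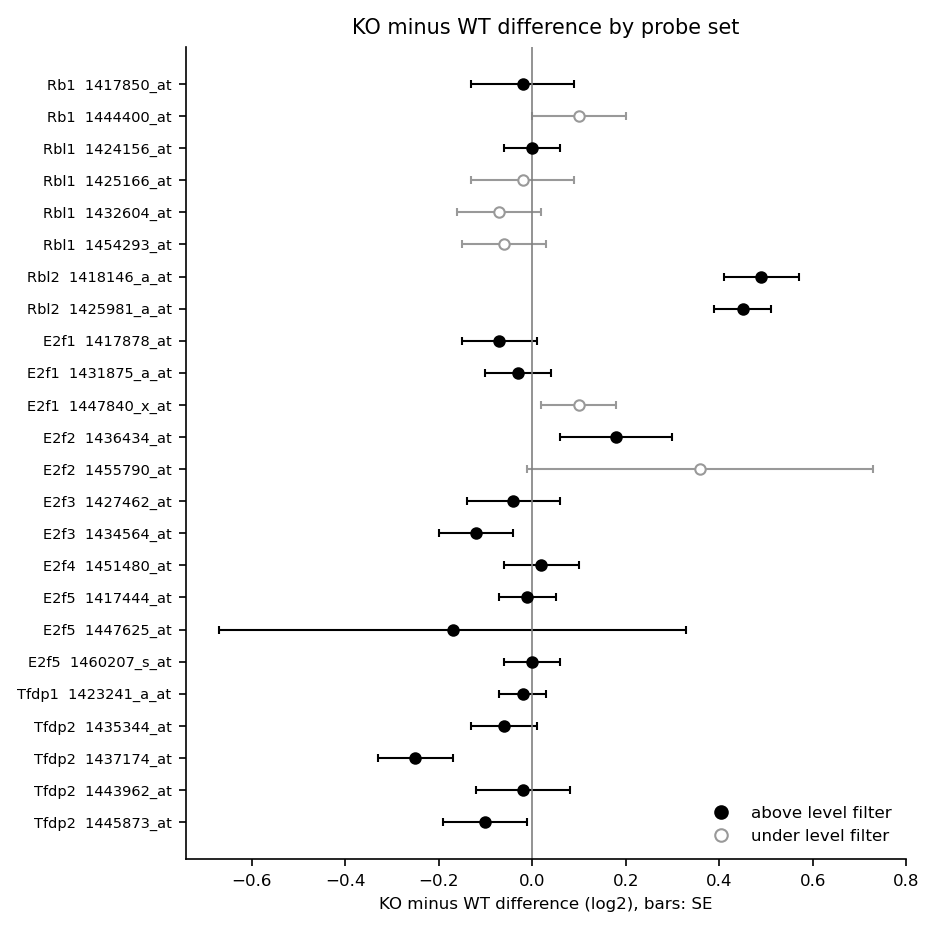
KO minus WT difference of the 24 probe sets on the log2 scale with its SE (horizontal axis), filled above the level filter and open under it. The 2 Rbl2 probe sets stand at 0.49 and 0.45, Tfdp2 1437174_at stands at −0.25, and E2f5 1447625_at has the widest error (SE 0.50).

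Rbl2 lies on chromosome 8, and its neighbours did not share its difference. On each side 5 annotated genes with a probe set were taken, with 18 probe sets in all. Leaving out Aktip, 15 probe sets of 9 genes ran from −0.10 to 0.17, among them those of Chd9, a chromatin remodelling gene, and of Fto, a demethylase gene of the AlkB family (−0.05 and 0.08). Of all 18, 8 were above the level filter and none of these passed (limma, 0 at an adjusted p under 0.05 and 2 at an unadjusted p under 0.05), against 0.0407% and 5.11% of all tested probe sets. Those 2 belong to Aktip, which encodes an AKT-interacting protein and is the next gene after Rbl2. Aktip read lower in KO testes at 1423364_a_at, with 8.33, 8.18 and 8.23 in KO testes, against 8.51, 8.35 and 8.46 in WT testes (−0.20 ± 0.07). At 1430219_at it read 6.53, 5.58 and 5.68 in KO testes, against 6.53, 6.78 and 6.71 in WT testes (−0.74 ± 0.23), so that KO replicates 2 and 3 were low and KO replicate 1 equalled the lowest WT array. Its remaining probe set, under the level filter, differed by 0.05. In the RefSeq table the spans of Rbl2 and Aktip overlap by 12064 bases, and whether any probe of either gene lies in the overlap was not examined.

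**Figure D5:**
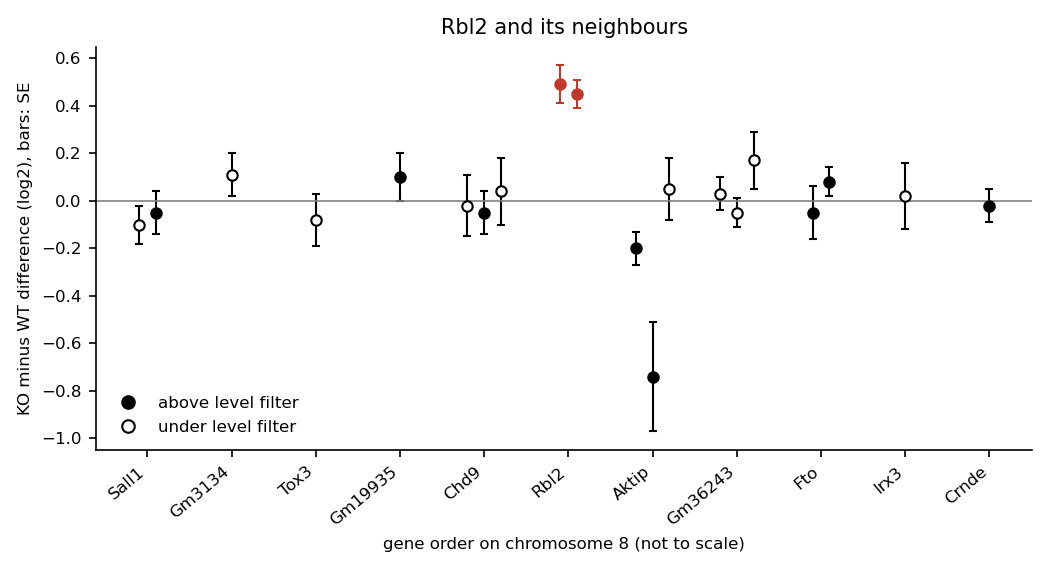
KO minus WT difference (log2, with SE) of the probe sets of Rbl2 (red) and of the 5 measured genes on each side, in gene order along chromosome 8 and not to scale, filled above the level filter and open under it. Rbl2 stands at 0.49 and 0.45, the next gene, Aktip, at −0.20, −0.74 and 0.05, and the other genes between −0.10 and 0.17.

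Rb1 lies on chromosome 14. Its 10 nearest measured neighbours, with 20 probe sets, had differences from −0.22 to 0.08, and 0 of 13 tested passed (limma, 0 also at an unadjusted p under 0.05), against the same 0.0407% and 5.11%.

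The genes whose array pattern came closest to that of Rbl2 1418146_a_at were 4933406F09Rik (root mean square difference 0.068), 4930453L07Rik (0.075) and Ktn1, a kinectin gene (0.080), over the 6 arrays. Ktn1 read 7.83, 7.78 and 7.87 in KO testes, against 7.35, 7.27 and 7.37 in WT testes, a difference of 0.49. A difference near that of Rbl2 follows from choosing genes by their likeness to it. 4933406F09Rik and Ktn1 lie on chromosome 14. 4930453L07Rik lies on chromosome 8 like Rbl2, with 532 measured genes between them.

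The rest of the pathway was described with 6 lists of 97 genes, of which 89 were tested, with the probe set of highest mean standing for each gene. None of the 89 passed (limma, 0 higher and 0 lower, adjusted p from 0.863 to 0.999, with 4 at an unadjusted p under 0.05), against 0.0432% called (0.036% higher, 0.0072% lower) and 5.51% at an unadjusted p under 0.05 over 13897 genes. Both counts are near those shares. The median difference was −0.004, against 0.012 over all genes. The partners of the pocket proteins held 2 of the 4. Mybl2, the MYB factor that joins MuvB in dividing cells, read 7.66, 7.59 and 7.52 in KO testes, against 7.46, 7.08 and 7.31 in WT testes (0.31 ± 0.10, limma adjusted p = 0.863). Lin37, a MuvB subunit, read 8.83, 8.77 and 8.90 in KO testes, against 8.93, 9.09 and 9.06 in WT testes (−0.19 ± 0.07, limma adjusted p = 0.918). In both the genotypes did not overlap, against 11% of all tested probe sets without overlap in either direction. Both genes were named for the smallest p in their list, so nothing is read from this. Over the 11 genes of this list, which also held the repressors E2f6, E2f7 and E2f8, 5 were higher and 6 lower in KO testes, with a median of −0.013. E2f6 read 7.49, 7.43 and 7.95 in KO testes, against 7.50, 7.39 and 7.34 in WT testes, where only KO replicate 3 stood apart.

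Genes that E2F factors are known to drive in G1 and S phase were spread evenly. Of 24 tested 11 were higher and 13 lower in KO testes, with a median of −0.008 and 0 that passed. Orc1, a subunit of the origin recognition complex, read 8.14, 7.94 and 8.10 in KO testes, against 7.88, 7.75 and 7.92 in WT testes (0.21 ± 0.08, limma adjusted p = 0.92). Rrm1, a subunit of ribonucleotide reductase, differed by −0.14 ± 0.07 and the methyltransferase gene Dnmt1 by 0.05 ± 0.06. The mean over this list was 9.10 to 9.12 in KO testes and 9.09 to 9.14 in WT testes. For the G2 and M phase genes that DREAM represses, 8 were higher and 15 lower of 23, with a median of −0.017. The phosphatase gene Cdc25c differed by 0.13 ± 0.07, the mitotic kinase gene Plk1 by 0.10 ± 0.06 and the spindle motor gene Kif11 by −0.15 ± 0.12.

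The kinases of cyclins D and E, the D-type cyclins and the CDK-activating kinase showed as little. Of these 9 genes 3 were higher and 6 lower (median −0.003). Ccnd3, a D-type cyclin, differed by 0.08 ± 0.06, and the CDK-activating subunits Mnat1 and Ccnh by −0.08 ± 0.08 and 0.05 ± 0.10. Of 6 inhibitors 2 were higher and 4 lower (median −0.008). Cdkn1b, which encodes the inhibitor p27, read 7.25, 7.42 and 7.51 in KO testes, against 7.05, 7.25 and 7.15 in WT testes (0.24 ± 0.09, limma adjusted p = 0.918). Cdkn2d and Cdkn2b, inhibitors of the cyclin D kinases, differed by −0.06 ± 0.08 and −0.05 ± 0.07. Among 16 corepressors that pocket proteins recruit, 12 were higher and 4 lower (median 0.030). Sin3a, a scaffold of histone deacetylases, had a difference of 0.14 ± 0.06, while the histone methyltransferase genes Kmt5b and Kmt5c stood at 0.08 ± 0.06 and 0.11 ± 0.10.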

How the data were processed

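Testis RNA of 3 KO and 3 WT mice was read on 1 Affymetrix array each, and samples were grouped by title. The deposited table holds normalized log2 values, a scale read from the values (2.61 to 15.00, array medians 6.62 to 6.65). GCOS 1.4 is named in the submitters' processing notes, while no source used here names the background correction, probe summary or normalization. Equalising the arrays would conceal a shift common to all transcripts. Low values hold mostly background, which understates fold changes.

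Without the 64 control probe sets, the upper 60% by mean over all arrays were tested (27022, lowest mean 6.02). KO was compared with WT by limma 3.58.1 (R 4.3.3) with an intensity trend, two-sided, with Benjamini-Hochberg adjustment. For probe sets under the filter, differences and SE came from the fit to all 45037. Names came from the platform annotation, with symbols brought up to date by gene id from RefSeq (GRCm38.p6), which was otherwise used for gene order and promoters. Of the probe sets 34945 named 1 gene, of which 99.4% matched.

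The genes and lists were chosen with earlier results of these data known. Named genes were all 10 genes of the set, up to 3 genes per pathway list by smallest p, 5 neighbours on each side of Rbl2 and Rb1, and the 3 genes most like Rbl2. The neighbours of E2f2, and the genes most like E2f2 and E2f5, were added after their values were seen. On simulated arrays (5 runs, 27022 probe sets, 200 changed), 48% of changes of 0.5 log2 and 90% of changes of 1 were recovered, and 5.21% of calls were false. The simulated noise was independent between probe sets and arrays, and the data gave only 11 calls, so these shares need not hold for the data. Alternatives covered normalization, the level filter, moderation, array weights, a replicate block, the choice of probe set per gene and leaving out arrays.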

Additional observations from a re-analysis of the deposited data

How the results depend on the processing

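The count of changed probe sets over the whole array was 11. It became 7 in the upper 40% of probe sets, 46 with array weights and 2 without WT arrays 1 and 2, a choice made after seeing the data, and ran from 2 to 12 when 1 array was left out, with 6 without KO replicate 1, 2 without KO replicate 3 and 4 without WT replicate 3. Of the pocket protein and E2F probe sets 0 passed, and with array weights 1 did, Rbl2 1425981_a_at. It was 0 in the other 14 alternatives, leaving out any 1 array included (0 to 0). Over 15 alternatives the Rbl2 differences ran from 0.39 to 0.541 and from 0.398 to 0.479, and the median over the set from −0.0341 to −0.0025, or from −0.0228 to −0.0071 when 1 array was left out. The count in the pathway lists stayed 0 in 16 alternatives. The causes of these changes were not tested. Deviations from the genotype mean correlated at 0.223, −0.024 and 0.096 between KO and WT arrays of the same replicate number. Arrays of different numbers were not compared, so these values cannot decide whether the numbers pair the mice. With the replicate number as a block, the count over the array was 9 and that of the set was 0. The depth over background is unknown, since detection calls were not used here, and 6 of the 24 probe sets lay under the level filter.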

Other observations

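The high reading of WT replicate 1 at E2f5 1447625_at was shared by probe sets of genes on other chromosomes. The 5 genes most like it over the 6 arrays, looked up after its values were seen, were Sf1, a splicing factor gene (root mean square difference 0.204), the kinase gene Pik3cd (0.222), the phosphatase gene Ptprk (0.251), Samhd1 (0.252) and Aif1l (0.261). Sf1 1459766_x_at read 12.90, 12.83 and 12.54 in KO testes, against 13.83, 12.22 and 12.21 in WT testes, and Pik3cd 1443798_at read 9.34, 9.66 and 9.63 in KO testes, against 10.92, 9.34 and 9.30 in WT testes. WT replicate 1 was the highest array in each of the 5, which follows from choosing them by likeness to this probe set. The probe sets of Sf1 and Samhd1 end in _x_at, which marks probes that can also bind other transcripts.

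Few markers of tissue next to the testis were tested, 2 of fat and 1 of epididymis, and some varied between mice of 1 genotype. Fabp4, a fat cell gene, read 6.84, 9.80 and 7.09 in KO testes, against 6.11, 5.77 and 8.38 in WT testes, and Spink8, an epididymis gene, read 6.01, 8.81 and 5.90 in KO testes, against 7.81, 5.47 and 5.99 in WT testes. KO replicate 2 was the highest array for both. Adipoq, the other tested fat cell gene, varied less, at 8.47, 8.69 and 8.44 in KO testes, against 8.31, 8.32 and 8.52 in WT testes.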
